A study of Mus musculus with 77 samples.

Results

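Livers of DIO-MASH mice given semaglutide for 8 weeks were set against livers of DIO-MASH mice given vehicle for the same time, the first of the study's 3 time points. The comparison held 16 of the study's 77 RNA sequencing libraries, chosen by their treatment labels alone: 7 labelled Semaglutide_8_w and 9 labelled Vehicle_8_w, each from 1 male mouse. Semaglutide was injected under the skin once daily at 123 µg per kg, a dose built up until day 5, and the vehicle mice had the same injection without drug. Both groups were C57BL/6JRj mice that came to the laboratory 5 to 6 weeks old and ate the Gubra Amylin NASH diet, with 40 kcal-% fat, 22% fructose and 2% cholesterol, for 34 weeks. All of them had also had a liver biopsy 4 weeks before dosing, after which they lived singly, and the 2 groups therefore share surgery as well as diet. Steatosis and fibrosis in that biopsy decided which mice entered the study, so that both groups stand for already diseased, diet-fed animals of 1 inbred strain. As outside points of reference, the 7 mice labelled Chow_reversal_8_w are, by that name, mice put back on chow for 8 weeks, whose injections and earlier diet are not given in the sources used here, and the 7 mice labelled Chow_Vehicle_24_w had always eaten chow and were given vehicle for 24 weeks. The semaglutide and vehicle groups of 16 and 24 weeks were other mice.

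Semaglutide is an agonist of the receptor for glucagon-like peptide 1, a gut hormone that promotes insulin release and lowers food intake. Metabolic dysfunction-associated steatohepatitis (MASH) combines fat storage in hepatocytes with cell injury, inflammation and scarring. In such livers injured hepatocytes are known to re-express genes of the fetal liver and of bile ducts, some hepatocytes re-enter the cell cycle, and many of the enzymes and secreted proteins of the mature hepatocyte decline. The account below is ordered by these roles and leaves collagens and inflammatory genes aside except where their levels moved together with another result.

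The libraries of semaglutide mice held 12487835 to 19384146 counts and those of vehicle mice 12058901 to 37631072 counts, and mitochondrial transcripts took 4.89 to 6.33% of the counts in semaglutide mice and 4.65 to 7.30% in vehicle mice. Hepatocyte identity was clear in every library: the 10 hepatocyte markers, from albumin to transthyretin, summed to 98096 to 132217 CPM in semaglutide mice and 75165 to 93433 CPM in vehicle mice, without overlap, where CPM is the count scaled for library size and composition. In bulk liver, fewer cells of a type and less RNA per cell cannot be told apart, and this holds for every level below. Glp1r, the receptor that semaglutide binds, was barely seen, with 13 counts over 6 of the 7 semaglutide libraries and 20 counts over 8 of the 9 vehicle libraries, too few to be tested. Semaglutide replicate 3 stood apart from its group: 8 markers of lipid-associated macrophages summed to 645 CPM in that mouse, against a group median of 207 CPM, and 6 monocyte markers summed to 619.9 CPM, against a group median of 218 CPM. Where leaving out this library moved a count by more than 1.5-fold, the count without it is given.

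Of 14904 genes tested, 857 passed an adjusted p of 0.05 (5.75% of the genes), 334 of them higher in semaglutide mice (2.24%) and 523 lower (3.51%). Falls were also deeper: 249 of the falls and 32 of the rises were more than 2-fold, and the median log2 fold change, semaglutide over vehicle, was -0.97 for the genes that fell and 0.51 for those that rose. The groups did not overlap at all for 107 genes that were above every vehicle mouse (0.718%) and 169 genes that were below (1.13%). These shares over all genes are to be set beside every list count below. Without semaglutide replicate 3 the calls numbered 364 higher and 751 lower. Scaling to library totals alone, which moved the median over all genes to -0.13, gave 154 higher and 1054 lower calls, so that the share of rises depends on the scaling while no gene named below as changed turned its sign. Leaving out semaglutide replicate 2 gave the fewest calls, 527 in all, and leaving out vehicle replicate 7 gave 547.

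**Figure D1:**
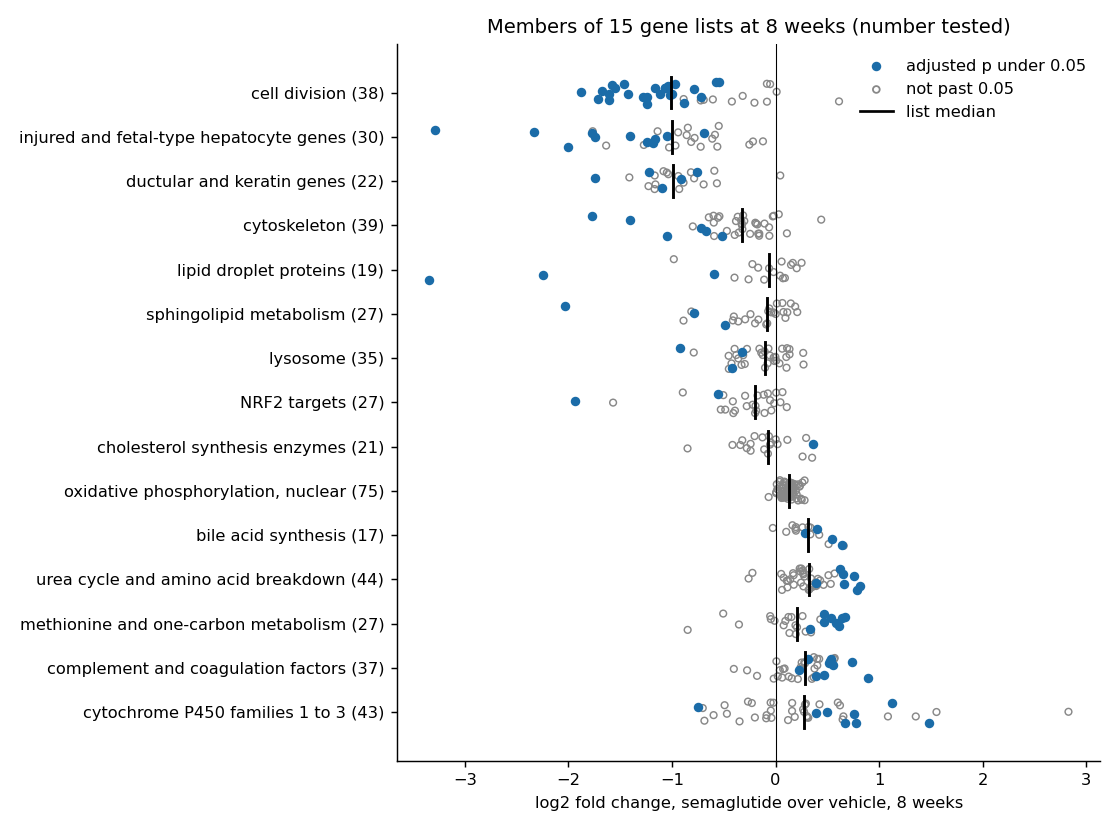
Log2 fold change of semaglutide over vehicle at 8 weeks for each tested member of 15 gene lists, with filled points for adjusted p under 0.05 and a bar at each list's median. Cell division and the injured and fetal-type hepatocyte genes have medians of -1.01 and -0.997, while the medians of the urea cycle and amino acid genes and of the complement and coagulation factors are 0.32 and 0.28.

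Few fat droplet genes fell at 8 weeks, and the fall was deep for Cidea and Cidec and smaller for Plin2. Of 19 lipid droplet proteins tested, 3 fell, Cidea, Cidec and Plin2, and 0 rose, at a list median of -0.06, while the other 16 did not pass. The falls numbered 2 without semaglutide replicate 4 and 6 under library totals alone. Levels are given here and below as the lowest, the median and the highest mouse of each group, followed by the log2 fold change ± SE from edgeR's quasi-likelihood fit. Cidea, which fuses small droplets into large ones, stood at 0.115, 1.62 and 4.41 CPM in semaglutide mice, against 11.2, 14.8 and 29.4 CPM in vehicle mice (log2 fold change -3.35 ± 0.49, adjusted p = 2.32e-06). In chow reversal mice Cidea stood at 11.8, 23.6 and 39.1 CPM, above every semaglutide mouse, and the direct test of semaglutide against chow reversal gave log2 fold change -3.86 ± 0.51, adjusted p = 4.45e-08. Cidec, its relative that guards large droplets (chromosome 6, 113424634 to 113435760 in GRCm38), had 5.67, 20.7 and 30.3 CPM in semaglutide mice, against 65.5, 86.7 and 118 CPM in vehicle mice (log2 fold change -2.25 ± 0.41, adjusted p = 0.00013). The semaglutide and vehicle mice did not overlap for either gene. Plin2, the coat protein of hepatocyte droplets, had 367, 477 and 544 CPM in semaglutide mice, against 612, 721 and 777 CPM in vehicle mice (log2 fold change -0.59 ± 0.17, adjusted p = 0.0196), again without overlap, although without semaglutide replicate 4 its adjusted p was 0.06. Plin4 had 24, 46 and 110.1 CPM in semaglutide mice, against 75.7, 102 and 129.7 CPM in vehicle mice and did not pass (log2 fold change -0.98 ± 0.32, adjusted p = 0.0526).

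Mogat1 and Dgat2, enzymes of neighbouring steps of triglyceride synthesis, moved in opposite directions. Mogat1, which makes diacylglycerol and is known to be induced in fatty mouse liver (chromosome 1, 78510991 to 78538173), had 1.27, 1.82 and 2.48 CPM in semaglutide mice, against 4.57, 5.50 and 9.79 CPM in vehicle mice (log2 fold change -1.82 ± 0.26, adjusted p = 1.7e-06). Dgat2, the last enzyme of the path, had 571, 617 and 719 CPM in semaglutide mice, against 403, 482 and 544 CPM in vehicle mice (log2 fold change 0.41 ± 0.10, adjusted p = 0.00788). Neither gene's groups overlapped, although Dgat2 had an adjusted p of 0.0513 under library totals alone, and the other 18 genes of triglyceride and phospholipid synthesis did not pass. Of the 20 triglyceride and phospholipid synthesis genes 1 thus rose and 1 fell, and of 21 fatty acid synthesis genes likewise 1 rose and 1 fell. Over all genes 2.24% rose and 3.51% fell. Mlxipl, the carbohydrate-sensing factor ChREBP, had 189, 299 and 353 CPM in semaglutide mice, against 155, 202 and 248 CPM in vehicle mice (log2 fold change 0.52 ± 0.14, adjusted p = 0.0133), and Elovl1, an elongase of very long chains, had 30.5, 35.1 and 39.4 CPM in semaglutide mice, against 39.5, 43.7 and 48.5 CPM in vehicle mice (log2 fold change -0.35 ± 0.10, adjusted p = 0.0214). The call of Mlxipl ended without semaglutide replicate 2 (adjusted p = 0.0523) and that of Elovl1 in 3 of the 16 fits that each left out 1 library.

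**Figure D2:**
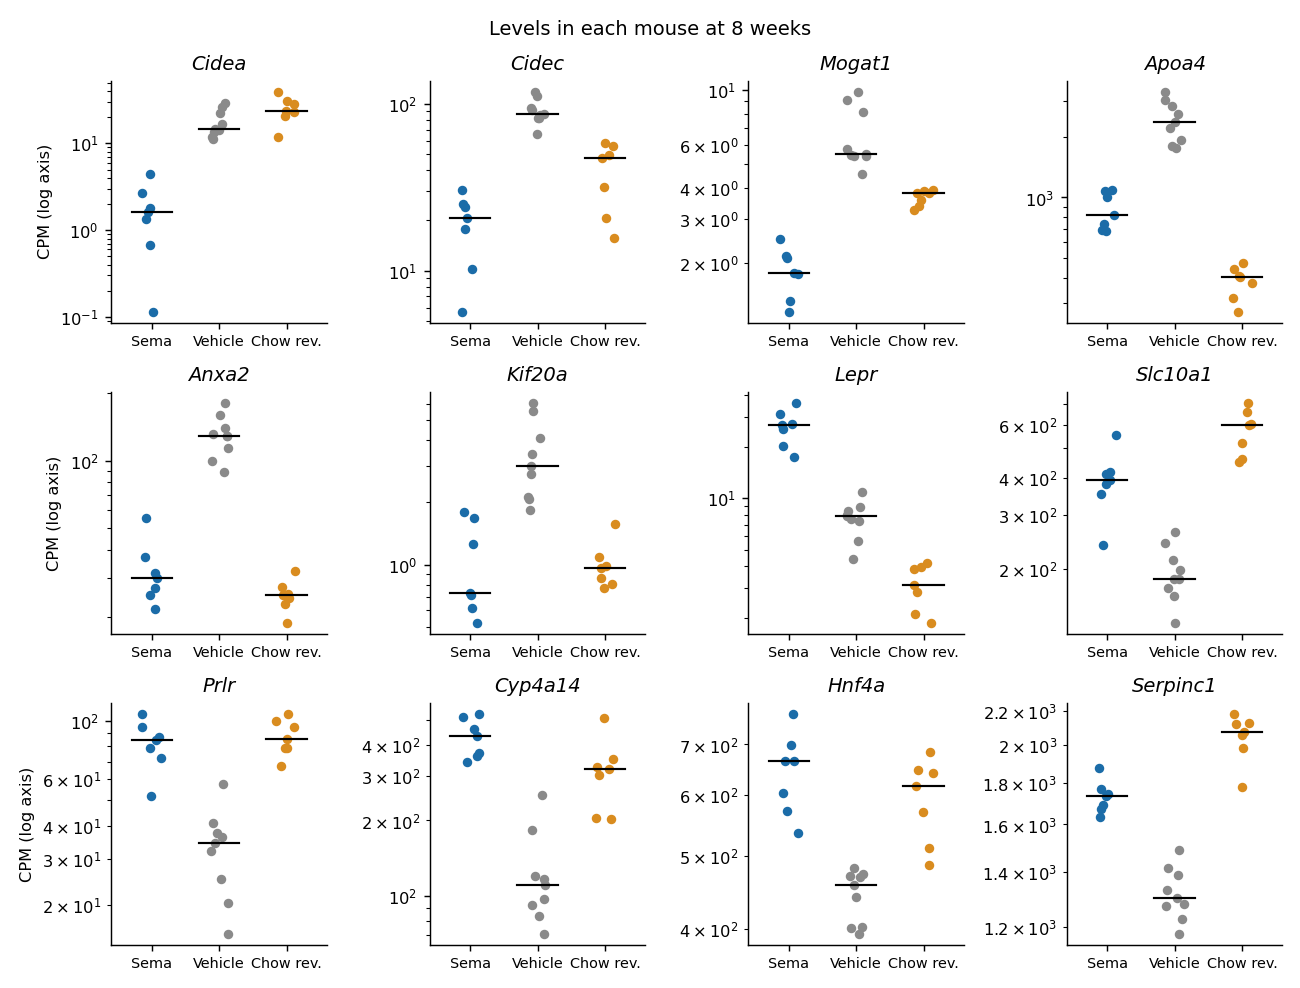
CPM on a log axis for 12 genes in each mouse, with semaglutide mice on the left, vehicle mice in the middle and chow reversal mice on the right at 8 weeks, and a line at each group's median. Semaglutide mice lie below all vehicle mice for Cidea, Cidec, Mogat1, Apoa4, Anxa2 and Kif20a, and above all of them for Lepr, Cyp4a14, Hnf4a and Serpinc1.

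Fatty acid uptake and activation split by gene: 3 of 19 members rose and 2 fell. Lipc, hepatic lipase, had 149.7, 169 and 200.4 CPM in semaglutide mice, against 86.3, 111 and 152 CPM in vehicle mice (log2 fold change 0.61 ± 0.14, adjusted p = 0.00402). Acsl1, which activates long-chain fatty acids, had 441, 683 and 772 CPM in semaglutide mice, against 315, 427 and 533 CPM in vehicle mice (log2 fold change 0.65 ± 0.20, adjusted p = 0.0381), and Slc27a5, a liver transporter that also activates bile acids, rose with a log2 fold change of 0.41. Those that fell were Cd36, a fatty acid receptor that rises in steatosis, with 95, 150.000 and 171 CPM in semaglutide mice, against 169.6, 209.8 and 250.4 CPM in vehicle mice (log2 fold change -0.57 ± 0.18, adjusted p = 0.0427), and Fabp4, a fatty acid carrier of adipocytes and macrophages, with 7.40, 8.89 and 13.3 CPM in semaglutide mice, against 18.6, 20.7 and 36.5 CPM in vehicle mice (log2 fold change -1.24 ± 0.36, adjusted p = 0.0259). Only the groups of Fabp4 were fully apart. Of the other 5 adipocyte markers, Cfd, adipsin, had 0.061, 1.003 and 2.47 CPM in semaglutide mice, against 0.407, 3.92 and 10.6 CPM in vehicle mice, while the defining genes Adipoq, Plin1 and Lep had 2, 0 and 0 counts in all semaglutide libraries and 6, 6 and 8 in all vehicle libraries. The part of adipocytes in the fall of Fabp4, Cidea and Cidec was not tested. With 1 library left out at a time, the adjusted p exceeded 0.05 for Acsl1 in 8 fits, up to 0.09 without semaglutide replicate 2, Slc27a5 in 12 fits, up to 0.112 without vehicle replicate 7, Cd36 in 8 fits, up to 0.126 without semaglutide replicate 5 and Fabp4 in 5 fits, up to 0.06 without vehicle replicate 6.

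Of 39 fatty acid oxidation genes 2 rose, beside 2.24% of all genes, and 0 fell, at a median of 0.12 that was below 0 under library totals alone. The 2 were Cyp4a14 and Acot1, both classical targets of the fatty acid sensor PPAR-alpha. Cyp4a14, a fatty acid omega-hydroxylase (chromosome 4, 115486200 to 115496142), had 341, 434 and 528 CPM in semaglutide mice, against 71, 111 and 253 CPM in vehicle mice (log2 fold change 1.78 ± 0.35, adjusted p = 0.000458), without overlap. Acot1, a cytosolic acyl-CoA thioesterase, had 23.2, 30.3 and 36.7 CPM in semaglutide mice, against 11.6, 14.8 and 23.9 CPM in vehicle mice (log2 fold change 0.97 ± 0.25, adjusted p = 0.0101). Both have close paralogs next to them in the mouse genome, between which the counting could split reads. Of 7 ketone body genes 0 passed in edgeR, 3 had an unadjusted p under 0.05 (2 higher, 1 lower) and 0 passed in DESeq2.

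Of the 42 pathway lists, cell division had the largest share of falls. Of 38 genes tested, 25 fell and 0 rose, against 3.51% of all genes that fell, and the list median was -1.01. The 25 covered the whole cycle: the replication helicase subunits Mcm2 to Mcm6, E2f1 and Foxm1, which drive the entry into S phase and mitosis, the cyclins Ccna2, Ccnb1 and Ccnb2 with their kinase Cdk1, and the spindle and cytokinesis genes Kif20a, Cdc20, Tpx2, Prc1, Racgap1, Plk1, Aurka, Bub1 and Bub1b. Kif20a, a kinesin of the dividing midzone, had 0.523, 0.732 and 1.79 CPM in semaglutide mice, against 1.84, 2.99 and 6.03 CPM in vehicle mice (log2 fold change -1.72 ± 0.25, adjusted p = 2.89e-06), without overlap. Cdc20, which turns on the anaphase-promoting complex (chromosome 4, 118432901 to 118437352), had 0.299, 0.854 and 2.02 CPM in semaglutide mice, against 1.31, 2.85 and 6.15 CPM in vehicle mice (log2 fold change -1.88 ± 0.33, adjusted p = 0.000108). Mcm2, a subunit of the replication helicase (chromosome 6, 88883474 to 88898780), had 2.81, 4.06 and 5.16 CPM in semaglutide mice, against 5.75, 7.57 and 14.6 CPM in vehicle mice (log2 fold change -1.04 ± 0.20, adjusted p = 0.00026), again without overlap. Ccnb2, a mitotic cyclin (chromosome 9, 70407692 to 70421547), had 0.394, 0.607 and 2.19 CPM in semaglutide mice, against 1.64, 2.32 and 5.79 CPM in vehicle mice (log2 fold change -1.60 ± 0.31, adjusted p = 0.000396), and 6 of the 7 semaglutide mice lay below all vehicle mice. In chow reversal mice Kif20a stood at 0.767, 0.96 and 1.57 CPM and Ccnb2 at 0.308, 0.47 and 0.778 CPM. Over the list, 10 of the 38 members were higher in semaglutide than in chow reversal mice and 0 lower, at a median of 0.65, where 3.52% of all genes were higher. Chow reversal against vehicle gave 33 lower and 1 higher, where 2665 of 14904 genes were lower. Levels were low throughout, mostly a few CPM, and their precision is limited by counting.

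Promoters of 3 of the genes that fell follow as RefSeq windows of GRCm38.p6 from 250 bases before the start to 50 after it, on the strand of the gene. They were picked after the values were known, as examples of windows that hold both motifs described next. Capitals mark 2 motifs known from cell cycle promoters, found on either strand: the cell cycle homology region (CHR, TTTGAA) and the CCAAT box (CCAAT). The windows lie at chr4:118437294-118437593, chr9:70421505-70421804 and chr10:69352863-69353162, all on the minus strand.
Cdc20: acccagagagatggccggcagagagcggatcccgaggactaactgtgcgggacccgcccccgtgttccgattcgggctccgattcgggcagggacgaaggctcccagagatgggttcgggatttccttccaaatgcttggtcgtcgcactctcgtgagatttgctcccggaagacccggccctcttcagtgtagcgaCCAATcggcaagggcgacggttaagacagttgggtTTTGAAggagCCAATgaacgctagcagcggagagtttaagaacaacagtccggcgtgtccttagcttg
Ccnb2: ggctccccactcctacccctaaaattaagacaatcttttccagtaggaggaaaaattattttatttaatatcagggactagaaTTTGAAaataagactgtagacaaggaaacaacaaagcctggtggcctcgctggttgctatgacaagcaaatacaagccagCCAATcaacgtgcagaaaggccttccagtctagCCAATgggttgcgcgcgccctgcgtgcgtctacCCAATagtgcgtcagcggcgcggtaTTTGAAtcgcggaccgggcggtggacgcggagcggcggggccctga
Cdk1: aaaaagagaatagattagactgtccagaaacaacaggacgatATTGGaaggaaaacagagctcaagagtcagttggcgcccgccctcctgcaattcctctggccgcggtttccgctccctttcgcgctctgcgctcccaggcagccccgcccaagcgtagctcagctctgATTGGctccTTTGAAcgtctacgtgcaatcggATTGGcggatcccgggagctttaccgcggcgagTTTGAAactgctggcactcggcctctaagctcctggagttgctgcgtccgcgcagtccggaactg
The Cdc20 window held 1 CHR and 2 CCAAT boxes, and those of Ccnb2 and Cdk1 held 2 CHR and 3 CCAAT boxes each. Windows were found for 30 of the 38 cell division genes. CHR was in 13 of them (43.3%) and CCAAT in 24 (80%), and both together were in 13 (43.3%). Among the 20 windows of genes that fell, 12 held CHR (60%) and 18 held CCAAT (90%). Over all 27025 windows of the same length the shares were 18.1% for CHR, 37.9% for CCAAT and 7.12% for both. CCAAT was as frequent in the cholesterol synthesis enzymes, of which 0 fell against vehicle: 14 of their 16 windows held it (87.5%). CHR was in 1 of those 16 (6.25%). A match is a stretch of letters and no evidence of binding.

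Markers of other cell types that can divide were measured beside these genes. T and NK cell markers summed to 5.85 to 26.4 CPM in semaglutide mice and 4.51 to 23.9 CPM in vehicle mice. Monocyte markers summed to 148 to 619.9 CPM in semaglutide mice and 238 to 431 CPM in vehicle mice, lipid-associated macrophage markers to 177 to 645 CPM in semaglutide mice and 359 to 721 CPM in vehicle mice, and myofibroblast markers to 120.3 to 261 CPM in semaglutide mice and 276 to 624 CPM in vehicle mice. Which of these cells, or hepatocytes, carried the lower cell division RNA was not tested. Semaglutide replicate 3 had the highest cell division score of its group, -0.29 as a mean log2 difference from the vehicle mean, and without it 27 members fell and 1, the thymidine kinase Tk1, rose, which with all libraries had a log2 fold change of 0.61 at an adjusted p of 0.0526. The count of falls was 19 with a block on sets of 10 neighbouring library numbers and went down to 18 without semaglutide replicate 2, semaglutide replicate 4 or vehicle replicate 4. At 16 weeks 12 members fell and 1 rose, where 5.8% of all genes fell and 6.44% rose. At 24 weeks 29 fell and 1 rose, where 13.6% of all genes fell and 10.8% rose.

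**Figure D3:**
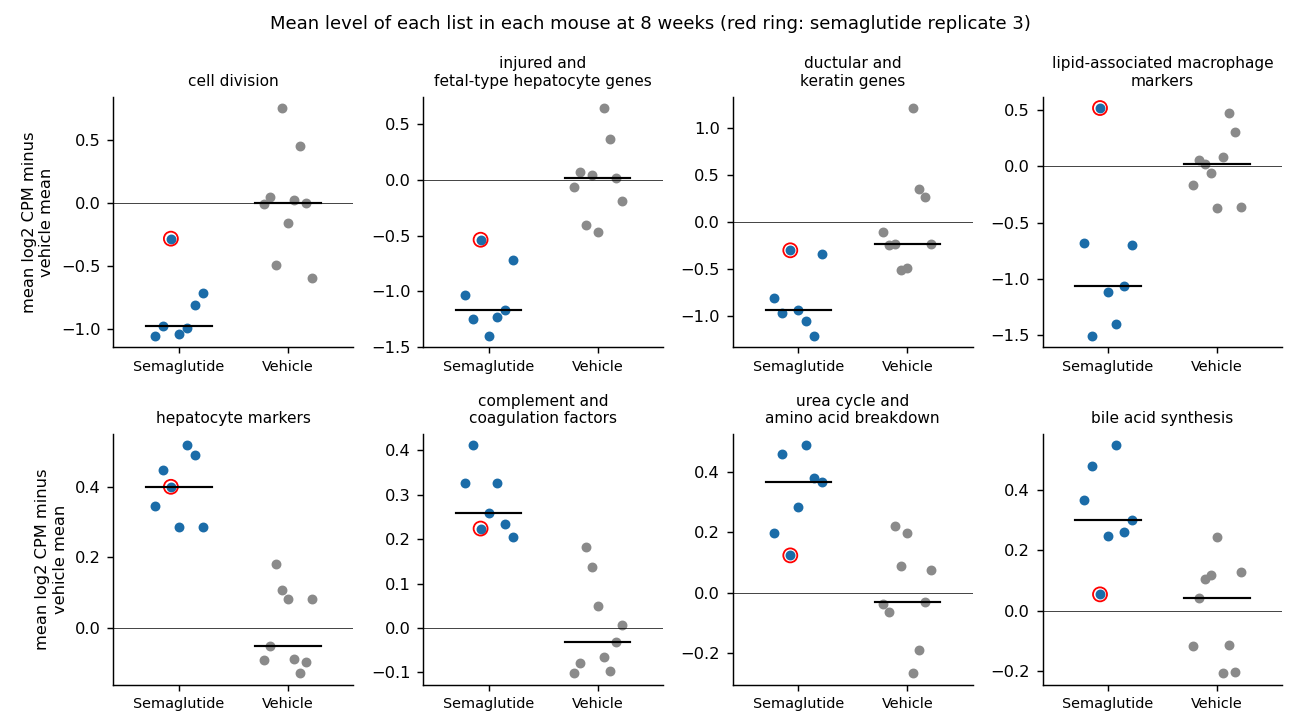
Score of 8 gene lists in each mouse, the mean over tested members of log2 CPM minus the vehicle mean at 8 weeks, with semaglutide mice left of vehicle mice and a line at each median. The red ring marks semaglutide replicate 3, which is at -0.29 for cell division, the highest of the semaglutide group.

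Of the list of injured and fetal-type hepatocyte genes, all 30 tested members had negative fold changes, 11 of them passed (0 rose), and the list median was -0.997. For 6 members all semaglutide mice were below all vehicle mice, as for 1.13% of all genes. Anxa2, a membrane-binding annexin that is low in resting hepatocytes (chromosome 9, 69453620 to 69491795), had 21.8, 29.8 and 55.2 CPM in semaglutide mice, against 88.6, 129 and 180.5 CPM in vehicle mice (log2 fold change -2.001 ± 0.24, adjusted p = 3.13e-08). Anxa5, a related annexin, had 101, 138 and 181 CPM in semaglutide mice, against 247, 332 and 412 CPM in vehicle mice (log2 fold change -1.18 ± 0.17, adjusted p = 1.07e-06). S100a11, a calcium-binding partner of annexins, had 8.94, 11.4 and 16.7 CPM in semaglutide mice, against 27.7, 38.5 and 68 CPM in vehicle mice (log2 fold change -1.75 ± 0.27, adjusted p = 5.04e-06). Ly6d, a surface protein of epithelial progenitors, had 2.56, 5.36 and 18.4 CPM in semaglutide mice, against 35.3, 66.7 and 129 CPM in vehicle mice (log2 fold change -3.29 ± 0.63, adjusted p = 0.000353). For these 4 genes every semaglutide mouse lay below every vehicle mouse. Chow reversal mice had 18.9, 25 and 31.9 CPM of Anxa2 and 0.7, 1.73 and 4.88 CPM of Ly6d. The number of members that fell was 5 without semaglutide replicate 2, 16 without semaglutide replicate 3 and 7 with the block on library numbers. Non-parenchymal cells also express annexins and S100a11, and the sums of myofibroblast markers, given above, did not overlap between the groups, while those of cholangiocyte and macrophage markers overlapped. Their part in these falls was not tested.

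Ductular and keratin genes had a median of -0.99, and 5 of 22 fell. Krt8 and Krt18 form the keratin pair of hepatocytes. Krt8 had 251, 346 and 422 CPM in semaglutide mice, against 501, 646 and 783 CPM in vehicle mice (log2 fold change -0.91 ± 0.22, adjusted p = 0.0048) and Krt18 168, 205 and 244 CPM in semaglutide mice, against 263, 344 and 476 CPM in vehicle mice (log2 fold change -0.76 ± 0.24, adjusted p = 0.0433), both without overlap. Sox4, a progenitor factor, had 2.50, 3.998 and 4.86 CPM in semaglutide mice, against 4.88, 6.80 and 13.7 CPM in vehicle mice (log2 fold change -1.09 ± 0.28, adjusted p = 0.00788), also without overlap, and Spp1, osteopontin, made by duct cells and macrophages, had 41.1, 69.98 and 167 CPM in semaglutide mice, against 106, 205 and 415 CPM in vehicle mice (log2 fold change -1.22 ± 0.39, adjusted p = 0.0483). The fifth, Cftr, a chloride channel of bile ducts, was at or below 0.49 CPM in every semaglutide mouse. The 8 cholangiocyte markers, which include Cftr, summed to 23 to 35.2 CPM in semaglutide mice and 24.3 to 84 CPM in vehicle mice, and 6 mesothelial markers to 4.25 to 10.02 CPM in semaglutide mice and 7.32 to 25 CPM in vehicle mice. Leaving out 1 library raised the adjusted p above 0.05 for Krt18 in 11 fits, up to 0.0954 without semaglutide replicate 5, Spp1 in 10 fits, up to 0.124 without vehicle replicate 6 and Cftr in 11 fits, up to 0.106 without vehicle replicate 6, and the count of falls ranged from 2 to 7, being highest without semaglutide replicate 3. With the block on library numbers Cftr (adjusted p = 0.134) and Spp1 (0.103) did not pass.

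Cytoskeletal genes had a median of -0.33 and 36 of 39 members were negative, of which 6 fell and 0 rose. Myh10, a non-muscle myosin, had 18.9, 20.4 and 25 CPM in semaglutide mice, against 26, 32.5 and 44.9 CPM in vehicle mice (log2 fold change -0.72 ± 0.19, adjusted p = 0.0117). Tpm1, an actin-binding tropomyosin, had 29.7, 34.1 and 40.5 CPM in semaglutide mice, against 45.2, 56.4 and 65 CPM in vehicle mice (log2 fold change -0.67 ± 0.19, adjusted p = 0.0205). Neither gene's groups overlapped, and Tubb2a, a beta-tubulin, overlapped in part, with 29, 67 and 172 CPM in semaglutide mice, against 100.2, 203 and 319.6 CPM in vehicle mice (log2 fold change -1.40 ± 0.40, adjusted p = 0.0211). Tpm4 and the tubulins Tubb2b and Tubb6 completed the 6. This count rested on single libraries, since 1 member fell without semaglutide replicate 2 and 12 fell without semaglutide replicate 3. Several of these genes are also abundant in myofibroblasts, whose 8 markers did not overlap between the groups (sums given above), and the part of those cells was not tested. When single libraries were left out, the adjusted p exceeded 0.05 for Tpm1 in 2 fits, up to 0.053 without semaglutide replicate 2 and Tubb2a in 3 fits, up to 0.0678 without semaglutide replicate 4.

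Large falls were also seen in genes outside the hepatocyte lists. They were chosen as the 12 most negative fold changes among genes that passed with an average log2 CPM over 1, and the sizes are therefore a selection. Sprr1a, a protein of cornified epithelia, had 0, 0.14 and 0.891 CPM in semaglutide mice, against 1.97, 3.86 and 9.76 CPM in vehicle mice (log2 fold change -4.28 ± 0.54, adjusted p = 8.89e-08). Sdcbp2, a PDZ scaffold protein, had 0.112, 0.403 and 0.822 CPM in semaglutide mice, against 4.65, 5.90 and 9.30 CPM in vehicle mice (log2 fold change -4.07 ± 0.56, adjusted p = 5.96e-07). Both were at or below 0.298 CPM in all mice that had always eaten chow. Treh, which splits trehalose, had 0.244, 0.81 and 1.34 CPM in semaglutide mice, against 3.54, 4.25 and 5.16 CPM in vehicle mice (log2 fold change -2.51 ± 0.30, adjusted p = 3e-08), and chow reversal mice had 1.73, 2.90 and 3.26 CPM, above every semaglutide mouse (log2 fold change -1.86 ± 0.31, adjusted p = 1.52e-05 for semaglutide over chow reversal). Themis, known from developing T cells, had 0.915, 2.58 and 4.50 CPM in semaglutide mice, against 12.9, 16.1 and 19.7 CPM in vehicle mice (log2 fold change -2.63 ± 0.34, adjusted p = 1.24e-07), whereas the 8 T and NK cell markers overlapped between the groups as given above. Fam83a, Shc2 and Gipc2, all signalling adaptors, fell with log2 fold changes of -2.25, -2.98 and -2.81, without overlap between the groups.

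Of the remaining large falls 2 were carried by few mice. Mmp7, a matrix protease, had 0.152, 0.449 and 1.44 CPM in semaglutide mice, against 0.532, 1.33 and 15.3 CPM in vehicle mice, and without vehicle replicate 6, the mouse at 15.3 CPM, its log2 fold change was -1.30 at an adjusted p of 0.337. Tekt5, a tektin, had 0, 0 and 0.0557 CPM in semaglutide mice, against 0, 0.164 and 1.59 CPM in vehicle mice, and without vehicle replicate 2 its adjusted p was 0.113. Lrtm2, a leucine-rich repeat protein, fell with a log2 fold change of -2.28.

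The 12 largest rises included 3 receptors. Lepr, the leptin receptor (chromosome 4, 101717404 to 101815352), had 17.3, 26.7 and 35.9 CPM in semaglutide mice, against 4.42, 7.87 and 10.8 CPM in vehicle mice (log2 fold change 1.78 ± 0.33, adjusted p = 0.000242), so that every semaglutide mouse exceeded every vehicle mouse. Chow reversal mice had 1.88, 3.12 and 4.19 CPM of Lepr and always chow-fed mice 0.796, 1.81 and 8.43 CPM, and semaglutide over chow reversal gave log2 fold change 3.05 ± 0.39, adjusted p = 1.93e-08. Its transcripts were not separated here into the signalling and the soluble forms. Avpr1a, the vasopressin receptor of hepatocytes, had 9.91, 13.5 and 21.4 CPM in semaglutide mice, against 2.94, 4.81 and 6.07 CPM in vehicle mice (log2 fold change 1.61 ± 0.25, adjusted p = 5.04e-06), and Adgrf1, an adhesion-type receptor, had 0.501, 1.12 and 2.68 CPM in semaglutide mice, against 0.0664, 0.177 and 0.559 CPM in vehicle mice (log2 fold change 2.26 ± 0.40, adjusted p = 9.58e-05). Below these 12 in size, Prlr, the prolactin receptor and a growth hormone-responsive gene, had 51.8, 84.7 and 106 CPM in semaglutide mice, against 15.6, 34.6 and 57.5 CPM in vehicle mice (log2 fold change 1.30 ± 0.22, adjusted p = 4.45e-05).

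Other large rises came from enzymes, a protease inhibitor and a non-coding RNA. Serpinb1a, an inhibitor of neutrophil elastase, had 14, 21 and 28.3 CPM in semaglutide mice, against 3.91, 5.16 and 10.9 CPM in vehicle mice (log2 fold change 1.71 ± 0.31, adjusted p = 0.000152), and Rdh16f2, of the retinol dehydrogenase family, had 79, 107 and 153 CPM in semaglutide mice, against 26.2, 37.9 and 62.8 CPM in vehicle mice (log2 fold change 1.38 ± 0.20, adjusted p = 1.64e-06). Neither overlapped. Dio3os, transcribed antisense to the deiodinase gene Dio3, had 1.79, 2.94 and 5.52 CPM in semaglutide mice, against 0.258, 0.73 and 1.77 CPM in vehicle mice (log2 fold change 1.77 ± 0.37, adjusted p = 0.00132), and semaglutide over chow reversal gave log2 fold change 2.51 ± 0.44, adjusted p = 4.79e-05. Sense and antisense reads there depend on the strand setting of the counting, which is not given in the sources used here. Sult2a8, a bile acid sulfotransferase, had 182, 396 and 438 CPM in semaglutide mice, against 54.8, 90.3 and 219 CPM in vehicle mice (log2 fold change 1.55 ± 0.41, adjusted p = 0.0124), and Cnmd, chondromodulin, rose by 1.52 on the log2 scale. Igha, the constant region of immunoglobulin A, had 1.34, 3.97 and 6.22 CPM in semaglutide mice, against 0.164, 0.828 and 1.72 CPM in vehicle mice (log2 fold change 1.90 ± 0.54, adjusted p = 0.0209), a call that ended without semaglutide replicate 5 (adjusted p = 0.0654). The sum of 6 B cell markers was 22.2 to 49.2 CPM in semaglutide mice and 23.7 to 110.4 CPM in vehicle mice.

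Of 44 urea cycle and amino acid genes, 42 were positive, 7 rose and 0 fell, at a median of 0.32. The 7 were Amdhd1 and Hal of histidine breakdown, Hpd of tyrosine breakdown, Gls2, the liver glutaminase, Agxt, which detoxifies glyoxylate, Afmid of tryptophan breakdown and Nags, which makes the activator of the urea cycle. Hpd had 1956, 2496 and 2943 CPM in semaglutide mice, against 1029, 1301 and 2151 CPM in vehicle mice (log2 fold change 0.75 ± 0.16, adjusted p = 0.001), Amdhd1 177, 226 and 247 CPM in semaglutide mice, against 110.1, 135 and 202 CPM in vehicle mice (log2 fold change 0.65 ± 0.12, adjusted p = 0.000102) and Agxt 185, 224 and 248 CPM in semaglutide mice, against 86.8, 122 and 207 CPM in vehicle mice (log2 fold change 0.82 ± 0.19, adjusted p = 0.00298). These groups overlapped in part, since 5 or 6 of the 7 semaglutide mice were above all vehicle mice. Without semaglutide replicate 3 or vehicle replicate 5 the number that rose was 11.

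Methionine and one-carbon metabolism had 8 of 27 members higher and 0 lower, at a median of 0.21. Along the methionine cycle these were Mat1a, which makes the methyl donor S-adenosylmethionine, Gnmt, which spends it, Ahcy, which clears its product, and Cbs, which passes homocysteine on to cysteine. Ahcy had 1332, 1425 and 1629 CPM in semaglutide mice, against 718, 899 and 1382 CPM in vehicle mice (log2 fold change 0.54 ± 0.14, adjusted p = 0.00846). Cdo1, which oxidises cysteine towards taurine, had 1381, 1560.1 and 1783 CPM in semaglutide mice, against 829, 976 and 1337 CPM in vehicle mice (log2 fold change 0.64 ± 0.11, adjusted p = 4.46e-05). Pipox, which degrades sarcosine (chromosome 11, 77880615 to 77894096), had 195, 238 and 245 CPM in semaglutide mice, against 113, 139 and 173 CPM in vehicle mice (log2 fold change 0.67 ± 0.11, adjusted p = 2.45e-05), and neither Cdo1 nor Pipox overlapped between the groups. Mthfd1 of the folate pathway had 178, 222 and 249.6 CPM in semaglutide mice, against 129.9, 157 and 192 CPM in vehicle mice (log2 fold change 0.46 ± 0.10, adjusted p = 0.00202), and Shmt1 completed the 8.

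Complement and coagulation factors, which hepatocytes secrete into plasma, had 10 of 37 members higher and 0 lower, 33 were positive, and the median was 0.28. For 5 of them all semaglutide mice were above all vehicle mice, as for 0.718% of all genes. Serpinc1, antithrombin, had 1634, 1732 and 1876 CPM in semaglutide mice, against 1176, 1301 and 1491 CPM in vehicle mice (log2 fold change 0.39 ± 0.06, adjusted p = 2.45e-05). Serpind1, heparin cofactor II, had 459, 506 and 565 CPM in semaglutide mice, against 299, 363 and 441 CPM in vehicle mice (log2 fold change 0.46 ± 0.08, adjusted p = 0.000108), and Plg, plasminogen, had 1838, 1924 and 2269.98 CPM in semaglutide mice, against 1206, 1352 and 1775 CPM in vehicle mice (log2 fold change 0.54 ± 0.10, adjusted p = 0.000245), each without overlap. F7, which starts coagulation with tissue factor, had 80.7, 99 and 112 CPM in semaglutide mice, against 43.6, 59.3 and 81 CPM in vehicle mice (log2 fold change 0.74 ± 0.16, adjusted p = 0.00163). Alb, albumin, had 51341, 58141 and 78844 CPM in semaglutide mice, against 35745, 43619 and 47119.6 CPM in vehicle mice (log2 fold change 0.51 ± 0.11, adjusted p = 0.00168). The count for the list was 16 without vehicle replicate 3. Under library totals alone the numbers that rose were 6 for the urea cycle and amino acid genes, 5 for the one-carbon genes and 8 for the complement and coagulation factors.

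Hnf4a, the master transcription factor of hepatocytes (chromosome 2, 163506808 to 163572910), had 535, 665 and 767 CPM in semaglutide mice, against 395, 458 and 482 CPM in vehicle mice (log2 fold change 0.54 ± 0.12, adjusted p = 0.00252), without overlap. Of 25 hepatocyte transcription factors 22 were positive, 3 rose and 1 fell. Rxra, the shared partner of the nuclear receptors, had 403, 472 and 515 CPM in semaglutide mice, against 309, 356 and 409 CPM in vehicle mice (log2 fold change 0.37 ± 0.11, adjusted p = 0.0321). Nr5a2, which controls bile acid and steroid genes, had 54, 60.1 and 60.9 CPM in semaglutide mice, against 39.4, 47.5 and 55.4 CPM in vehicle mice (log2 fold change 0.29 ± 0.09, adjusted p = 0.0484), and Pparg, the adipocyte regulator that fatty hepatocytes also express, had 7.87, 12.7 and 15 CPM in semaglutide mice, against 14.2, 18.3 and 20.6 CPM in vehicle mice (log2 fold change -0.56 ± 0.18, adjusted p = 0.0473). The last 3 calls were fragile: with 1 library left out the adjusted p exceeded 0.05 for Rxra in 8 fits, up to 0.0793 without semaglutide replicate 4, Nr5a2 in 13 fits, up to 0.112 without vehicle replicate 6 and Pparg in 14 fits, up to 0.141 without semaglutide replicate 5. Under library totals alone Rxra was at 0.25 (adjusted p = 0.158) and Nr5a2 at 0.16 (adjusted p = 0.366), and Pparg did not pass with the block on library numbers (adjusted p = 0.0635).

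The bile acid synthesis list, which holds regulators beside enzymes, had 4 of 17 members higher, 0 lower and 16 positive, at a median of 0.32. Those that rose were Klb and Fgfr4, which together form the receptor for the gut hormone FGF15, Cyp39a1, an oxysterol hydroxylase, and the transcription factor Nr5a2. Only Cyp39a1 among them is a synthesis enzyme, so that these calls do not stand for the enzymes as a set. Klb had 21.4, 27.4 and 31.7 CPM in semaglutide mice, against 13.1, 18.4 and 21.4 CPM in vehicle mice (log2 fold change 0.64 ± 0.15, adjusted p = 0.00406), without overlap, Fgfr4 34.6, 45 and 48.1 CPM in semaglutide mice, against 29.7, 32.3 and 37.3 CPM in vehicle mice (log2 fold change 0.40 ± 0.11, adjusted p = 0.0221) and Cyp39a1 19.2, 24.6 and 34.8 CPM in semaglutide mice, against 15.4, 16.8 and 23.1 CPM in vehicle mice (log2 fold change 0.55 ± 0.14, adjusted p = 0.0124). Only 2 members rose without semaglutide replicate 2 or 5, and 1 rose under library totals alone. Slc10a1, the sodium-dependent bile acid importer NTCP (chromosome 12, 80953183 to 80968705), had 239.8, 394 and 552 CPM in semaglutide mice, against 132, 185 and 263 CPM in vehicle mice (log2 fold change 1.01 ± 0.19, adjusted p = 0.000255), and chow reversal mice had 452, 599.8 and 706 CPM. It was the 1 of 12 bile acid transport genes that passed. Slco1a1, another importer, had 6.45, 19.2 and 166 CPM in semaglutide mice, against 1.42, 8.10 and 26.1 CPM in vehicle mice and did not pass (log2 fold change 2.14 ± 0.81, adjusted p = 0.0992).

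Of 24 apolipoprotein and lipoprotein assembly genes 5 rose and 2 fell. Apoa4, an apolipoprotein that mouse liver makes in steatosis, fell the most, with 681, 815 and 1093 CPM in semaglutide mice, against 1755, 2377 and 3336 CPM in vehicle mice (log2 fold change -1.48 ± 0.34, adjusted p = 0.00357), without overlap. Chow reversal mice had 272, 405 and 475 CPM of it, below every semaglutide mouse. Tm6sf2, which loads lipid onto very-low-density lipoproteins, had 32.9, 38.6 and 41.4 CPM in semaglutide mice, against 21, 25.7 and 28.5 CPM in vehicle mice (log2 fold change 0.57 ± 0.12, adjusted p = 0.000847), and Lcat, which esterifies cholesterol in plasma, had 321, 330.3 and 357 CPM in semaglutide mice, against 187, 230.1 and 313 CPM in vehicle mice (log2 fold change 0.49 ± 0.11, adjusted p = 0.00208), both without overlap. Apoh, Apof and Apom rose by 0.47, 0.34 and 0.72 on the log2 scale, and Apobec1, which edits apolipoprotein B mRNA, fell by 0.41. With 1 library left out, the adjusted p exceeded 0.05 for Apoh in 1 fit, up to 0.0603 without vehicle replicate 7, Apof in 3 fits, up to 0.101 without semaglutide replicate 5, Apom in 13 fits, up to 0.101 without semaglutide replicate 5 and Apobec1 in 10 fits, up to 0.106 without semaglutide replicate 2.

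Genes known to be zoned across the lobule did not move as 1 block. Of 23 periportal genes 5 rose and 2 fell: Alb, Gls2, Hal, Pigr and Agt rose, while Cdh1 and Aldh1b1 fell. Without semaglutide replicate 3, 8 rose and 1 fell, and in 7 of the 16 fits without 1 library 0 fell. Pigr, which carries immunoglobulin A into bile, had 1435, 1720.2 and 1843 CPM in semaglutide mice, against 1017, 1117 and 1454 CPM in vehicle mice (log2 fold change 0.52 ± 0.12, adjusted p = 0.00311). Of 21 pericentral genes 1 rose, Cyp2e1, the ethanol-inducible P450, with 5880.4, 6854 and 9084 CPM in semaglutide mice, against 2638, 3746 and 6274 CPM in vehicle mice (log2 fold change 0.67 ± 0.19, adjusted p = 0.0239). Fits without 1 library raised the adjusted p above 0.05 for Cyp2e1 in 4 fits, up to 0.0763 without semaglutide replicate 4, Cdh1 in 9 fits, up to 0.106 without semaglutide replicate 6, Aldh1b1 in 12 fits, up to 0.113 without semaglutide replicate 3 and Agt in 7 fits, up to 0.0968 without semaglutide replicate 2.

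Among the cytochrome P450 genes of families 1 to 3, 7 of 43 rose and 1 fell, at a median of 0.28. Cyp2j9 had 6.52, 7.71 and 10.2 CPM in semaglutide mice, against 2.96, 4.72 and 6.73 CPM in vehicle mice (log2 fold change 0.76 ± 0.16, adjusted p = 0.000863), Cyp2c68 149.9, 182 and 235 CPM in semaglutide mice, against 88.7, 100.02 and 173 CPM in vehicle mice (log2 fold change 0.78 ± 0.17, adjusted p = 0.00179) and Cyp2c54 60.6, 107 and 143 CPM in semaglutide mice, against 16.3, 34.2 and 95.7 CPM in vehicle mice (log2 fold change 1.48 ± 0.39, adjusted p = 0.0108). These enzymes oxidise drugs and fatty acids, and the Cyp2c genes form a cluster of close copies among which reads can be shared. Cyp2c55 ran the other way, with 1.40, 2.62 and 5.01 CPM in semaglutide mice, against 3.69, 5.23 and 7.15 CPM in vehicle mice (log2 fold change -0.75 ± 0.23, adjusted p = 0.0375), and its call ended in 8 of the 16 fits that left out 1 library. The number of rises was 3 without semaglutide replicate 2, semaglutide replicate 4 or vehicle replicate 7.

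Of 52 conjugation enzymes 3 rose and 3 fell, beside 2.24% and 3.51% of all genes. In that list 33 were positive, and 5 rose and 3 fell without semaglutide replicate 3. The list median was 0.09 and turned to -0.04 under library totals alone. Gstm3, a glutathione transferase (chromosome 3, 107963696 to 107969283), had 44.8, 77.5 and 182 CPM in semaglutide mice, against 194, 371 and 440.1 CPM in vehicle mice (log2 fold change -1.87 ± 0.34, adjusted p = 0.000123). Gsta1, of the alpha class, had 2.38, 13.5 and 24.1 CPM in semaglutide mice, against 30.8, 54.1 and 84.9 CPM in vehicle mice (log2 fold change -2.08 ± 0.45, adjusted p = 0.00163), and Gstm2 53.3, 73.6 and 104 CPM in semaglutide mice, against 107, 129 and 183 CPM in vehicle mice (log2 fold change -0.74 ± 0.21, adjusted p = 0.0209). All 3 falls were without overlap and belong to families that the antioxidant factor NRF2 is known to induce, whereas Gsto1 rose, with 60.9, 72.4 and 88.1 CPM in semaglutide mice, against 40.2, 51.6 and 63 CPM in vehicle mice (log2 fold change 0.54 ± 0.14, adjusted p = 0.00713), as did Gstt3 and Sult2a8. Members of these families share sequence, and reads may be split among them. Of 27 NRF2 targets 23 were negative, 2 fell (beside 3.51% of all genes) and 0 rose, at a median of -0.20. Cbr3, a carbonyl reductase, had 0.658, 1.26 and 2.19 CPM in semaglutide mice, against 2.75, 4.96 and 8.43 CPM in vehicle mice (log2 fold change -1.94 ± 0.47, adjusted p = 0.00512), without overlap, and Ugdh, which supplies UDP-glucuronate, had 106, 140.3 and 154 CPM in semaglutide mice, against 136, 207 and 237 CPM in vehicle mice (log2 fold change -0.55 ± 0.16, adjusted p = 0.0255). Srxn1, sulfiredoxin, had 42.8, 50.9 and 65.1 CPM in semaglutide mice, against 70.3, 92.2 and 125 CPM in vehicle mice, groups that did not overlap, and yet an adjusted p of 0.0936. Fits without 1 library raised the adjusted p above 0.05 for Gstm2 in 2 fits, up to 0.0614 without semaglutide replicate 1, Gstt3 in 11 fits, up to 0.0952 without semaglutide replicate 7 and Ugdh in 3 fits, up to 0.0786 without semaglutide replicate 5. At 24 weeks 17 of the 27 targets fell, where 13.6% of all genes fell, with Cbr3 at -4.55 and Srxn1 at -2.60.

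In the growth hormone and IGF axis 3 of 21 genes rose besides 1 fall. Prlr is given above. Igfbp2, a binding protein that fasting and leptin raise, had 480.003, 495 and 812 CPM in semaglutide mice, against 211, 275 and 477 CPM in vehicle mice (log2 fold change 0.93 ± 0.20, adjusted p = 0.00197), without overlap. Igfals, which stabilises circulating IGF complexes, had 45.3, 61.1 and 98.6 CPM in semaglutide mice, against 25, 37.8 and 59.9 CPM in vehicle mice (log2 fold change 0.82 ± 0.18, adjusted p = 0.00259), and Igfbp3, the other part of those complexes, which liver makes in non-parenchymal cells, had 8.79, 11.9 and 17.3 CPM in semaglutide mice, against 14.7, 24.7 and 32 CPM in vehicle mice (log2 fold change -0.91 ± 0.18, adjusted p = 0.000458). Male-biased liver genes, which pulsatile growth hormone maintains, gave 2 rises and 1 fall among 21. Hsd3b5, a steroid dehydrogenase of male mouse liver, had 0.202, 1.87 and 36.2 CPM in semaglutide mice, against 0, 0.181 and 1.12 CPM in vehicle mice (log2 fold change 4.79 ± 1.27, adjusted p = 0.0125), while always chow-fed mice had 41.4, 162 and 194 CPM. That call rested on semaglutide replicate 5, without which the log2 fold change was 3.50 at an adjusted p of 0.132. Mup3, a major urinary protein with near-identical copies, had 2424, 4044 and 6245 CPM in semaglutide mice, against 1547, 2030.1 and 2774 CPM in vehicle mice (log2 fold change 0.99 ± 0.28, adjusted p = 0.0229), and its adjusted p was 0.0795 without the same mouse. Cyp4a12b fell, with 1.06, 4.49 and 12.6 CPM in semaglutide mice, against 3.94, 16.1 and 69.97 CPM in vehicle mice (log2 fold change -1.74 ± 0.54, adjusted p = 0.0396), and its adjusted p was 0.163 without vehicle replicate 8. Of 12 female-biased genes 0 passed in edgeR, 7 had an unadjusted p under 0.05 (6 higher, 1 lower) and 0 passed in DESeq2.

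Hepatokines, proteins that liver releases to act elsewhere, had 3 of 28 higher and 1 lower. Ahsg, fetuin-A, had 5118, 6034 and 6757 CPM in semaglutide mice, against 3315, 4032 and 5195 CPM in vehicle mice (log2 fold change 0.54 ± 0.14, adjusted p = 0.00944), Gpld1, a phospholipase that rises with exercise in mice, had 222, 239.9 and 261 CPM in semaglutide mice, against 144, 177 and 234 CPM in vehicle mice (log2 fold change 0.43 ± 0.11, adjusted p = 0.0135), and Smoc1 had 105, 125 and 137 CPM in semaglutide mice, against 85.7, 93.4 and 107 CPM in vehicle mice (log2 fold change 0.37 ± 0.10, adjusted p = 0.0162). Fstl1, a follistatin-like protein of mesenchymal cells, fell, with 6.30, 9.21 and 13.7 CPM in semaglutide mice, against 13.4, 15.1 and 27.6 CPM in vehicle mice (log2 fold change -0.97 ± 0.20, adjusted p = 0.00122). All 4 calls held with each library left out, but under library totals alone Gpld1 (adjusted p = 0.0522) and Smoc1 (0.10) did not pass. Retinoid genes gave 2 rises and 1 fall among 21, beside 2.24% and 3.51% of all genes. Aldh1a7 had 157, 172 and 207 CPM in semaglutide mice, against 243, 261 and 293 CPM in vehicle mice (log2 fold change -0.56 ± 0.10, adjusted p = 7.49e-05), without overlap, and it was also lower than in chow reversal mice, at 272, 327 and 357 CPM (log2 fold change -0.84 ± 0.10, adjusted p = 5.77e-09). Cyp26a1, which degrades retinoic acid, had 4.19, 5.47 and 14 CPM in semaglutide mice, against 2.13, 2.99 and 4.51 CPM in vehicle mice (log2 fold change 1.31 ± 0.35, adjusted p = 0.0118), and Retsat, which saturates retinol, 329, 394 and 436 CPM in semaglutide mice, against 171, 239 and 377 CPM in vehicle mice (log2 fold change 0.72 ± 0.21, adjusted p = 0.0271). With 1 library left out the adjusted p exceeded 0.05 for Cyp26a1 in 2 fits, up to 0.0551 without semaglutide replicate 7 and Retsat in 4 fits, up to 0.0637 without vehicle replicate 7.

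Hk2, the hexokinase of muscle and growing cells, had 1.65, 3.01 and 4.61 CPM in semaglutide mice, against 6.86, 10.2 and 14.4 CPM in vehicle mice (log2 fold change -1.66 ± 0.33, adjusted p = 0.000483), without overlap. Pkm, the pyruvate kinase of non-hepatocytes, had 35.9, 42.8 and 79.98 CPM in semaglutide mice, against 58.4, 70.6 and 92.9 CPM in vehicle mice (log2 fold change -0.64 ± 0.18, adjusted p = 0.0223). They were the 2 of 23 genes of glucose and fructose use that passed, both lower, where 3.51% of all genes fell. Of 24 genes of glucose output, glycogen and insulin signalling 2 rose. Ppp1r3c, which targets phosphatase to glycogen, had 35, 44.5 and 56.4 CPM in semaglutide mice, against 17.4, 24.1 and 34.9 CPM in vehicle mice (log2 fold change 0.89 ± 0.26, adjusted p = 0.0247), without overlap, and Fbp1, of gluconeogenesis, had 915, 1191 and 1313 CPM in semaglutide mice, against 838, 1019 and 1085 CPM in vehicle mice (log2 fold change 0.24 ± 0.08, adjusted p = 0.0388). Leaving out 1 library raised the adjusted p above 0.05 for Pkm in 5 fits, up to 0.0689 without semaglutide replicate 2, Ppp1r3c in 3 fits, up to 0.0601 without semaglutide replicate 2 and Fbp1 in 8 fits, up to 0.112 without semaglutide replicate 5, and under library totals alone Fbp1 was at 0.11 (adjusted p = 0.364). The rises of the second list numbered 0 without semaglutide replicate 2 or vehicle replicate 6.

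Sphingolipid genes gave 3 falls among 27. Smpd3, neutral sphingomyelinase, had 2.01, 4.72 and 10.7 CPM in semaglutide mice, against 10.1, 19.2 and 25.9 CPM in vehicle mice (log2 fold change -2.04 ± 0.44, adjusted p = 0.00163). Sptlc2, of the first step of sphingolipid synthesis, had 24.5, 27.4 and 32 CPM in semaglutide mice, against 34.6, 39.3 and 44.3 CPM in vehicle mice (log2 fold change -0.49 ± 0.13, adjusted p = 0.0161), without overlap, and B4galt6, which makes lactosylceramide, had 3.48, 4.90 and 9.62 CPM in semaglutide mice, against 6.51, 8.54 and 12.7 CPM in vehicle mice (log2 fold change -0.79 ± 0.23, adjusted p = 0.0285). Lysosomal genes gave 3 falls among 35 at a median of -0.11. Gusb, beta-glucuronidase, had 32.3, 36.1 and 48.3 CPM in semaglutide mice, against 45.1, 49.9 and 59.3 CPM in vehicle mice (log2 fold change -0.42 ± 0.10, adjusted p = 0.00318), and Lipa, the acid lipase that frees cholesterol, had 212, 240.4 and 256.5 CPM in semaglutide mice, against 241, 298 and 366 CPM in vehicle mice (log2 fold change -0.33 ± 0.10, adjusted p = 0.0337). The third, Cd63, is also on the lipid-associated macrophage list, and the lysosome count was 10 without semaglutide replicate 3, the mouse with the most RNA of those macrophages. Of 22 genes of the integrated stress response 1 fell (3 without semaglutide replicate 3), beside 3.51% of all genes. It was Mthfd2, a mitochondrial folate enzyme (log2 fold change -0.93 ± 0.26, adjusted p = 0.0209). Of 26 cell death genes Cidec and Tnfrsf10b fell (4 genes without semaglutide replicate 3), and Tnfrsf10b, a TRAIL receptor, had 0.225, 0.403 and 0.748 CPM in semaglutide mice, against 0.414, 0.886 and 1.76 CPM in vehicle mice (log2 fold change -1.22 ± 0.35, adjusted p = 0.0245). Of 26 acute phase genes 1, Il6ra, rose (log2 fold change 0.55 ± 0.17, adjusted p = 0.0416), beside 2.24% of all genes. With 1 library left out the adjusted p exceeded 0.05 for B4galt6 in 6 fits, up to 0.0842 without semaglutide replicate 5, Lipa in 7 fits, up to 0.0905 without vehicle replicate 7, Cd63 in 12 fits, up to 0.12 without semaglutide replicate 2, Mthfd2 in 3 fits, up to 0.0627 without semaglutide replicate 4, Tnfrsf10b in 4 fits, up to 0.0733 without vehicle replicate 7 and Il6ra in 10 fits, up to 0.0949 without semaglutide replicate 1.

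Several lists yielded 0 calls in edgeR at 8 weeks. The 75 nuclear genes of oxidative phosphorylation had a median of 0.13 with 74 positive, 3 at an unadjusted p under 0.05 and 0 in DESeq2. Their median was 0.0015 under library totals alone. At later times 43 of them rose at 16 weeks and 21 at 24 weeks, in other mice, where 6.44% and 10.8% of all genes rose. The 16-week calls depend on the fit. Over all genes they numbered 1824, but 742 without 3 libraries of a second number series and 533 with both 16-week groups fitted alone. The 13 mitochondrial genes had 0 at an unadjusted p under 0.05 and 0 in DESeq2. Of 23 genes of the unfolded protein response 1 had an unadjusted p under 0.05, Herpud1, with 402, 473 and 639.7 CPM in semaglutide mice, against 311, 375 and 398 CPM in vehicle mice, groups that did not overlap and an adjusted p of 0.0619, and it passed in DESeq2. Among 22 circadian genes 3 were higher at an unadjusted p under 0.05 and 0 in DESeq2, and among 21 heme and iron genes 2 and 0. Nr1d1, a clock repressor, had 124, 151 and 182 CPM in semaglutide mice, against 82.1, 104 and 123 CPM in vehicle mice, without overlap (log2 fold change 0.55 ± 0.21, adjusted p = 0.0987). These p-values do not show that the groups were alike. Without semaglutide replicate 3 small counts given here moved as well: 2 genes fell in triglyceride and phospholipid synthesis and in the growth hormone axis, 1 in fatty acid oxidation and in bile acid transport, and 0 among hepatocyte transcription factors and male-biased genes, while 2 rose in fatty acid and cholesterol synthesis, 1 among heme genes and 0 among acute phase genes.

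Cholesterol synthesis enzymes set chow reversal mice apart from both semaglutide and vehicle mice. Dietary cholesterol is known to hold the transcription factor SREBP2 inactive and thereby to keep the synthesis enzymes low. Of 21 cholesterol synthesis enzymes 1 rose and 0 fell against vehicle, at a median of -0.07. Against chow reversal at the same 8 weeks, 20 of the 21 were lower in semaglutide mice and 0 higher, at a median of -2.18, where 2.64% of all genes were lower and 3.52% higher. In chow reversal mice against vehicle mice 20 were higher and 0 lower, at a median of 2.47, where 2117 of 14904 genes were higher. Semaglutide and chow reversal mice differ in drug and, by the labels, in diet, and in their direct comparison the parts of the 2 cannot be told apart. Semaglutide and vehicle mice shared the diet. Sqle, squalene epoxidase, had 0.675, 0.864 and 2.09 CPM in semaglutide mice, against 86.7, 100.1 and 131 CPM in chow reversal mice (log2 fold change -6.52 ± 0.43, adjusted p = 1.21e-20), and vehicle mice had 0.492, 1.73 and 4.14 CPM. Idi1, isopentenyl diphosphate isomerase, had 13.1, 21.4 and 33.5 CPM in semaglutide mice, against 259.5, 342 and 391 CPM in chow reversal mice (log2 fold change -3.93 ± 0.29, adjusted p = 3.67e-18). Hmgcs1, the first committed enzyme of the path, had 60.8, 99.1 and 116 CPM in semaglutide mice, against 505, 614 and 789 CPM in chow reversal mice (log2 fold change -2.79 ± 0.20, adjusted p = 4.49e-19), and vehicle mice had 79.9, 114 and 138 CPM. Semaglutide and chow reversal mice were far apart for each of the 3 genes, whereas semaglutide and vehicle mice overlapped. Idi1 and Hmgcs1 were picked after their values were seen.

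The promoter window of Hmgcs1 is shown because it was the 1 of 16 windows of these enzymes with an exact match to a sterol element written TCACNCCAC, searched on both strands and in capitals below. Over all 27025 windows 330 held it (1.22%). The window lies at chr13:119690101-119690400 on the plus strand of GRCm38.p6.
Hmgcs1: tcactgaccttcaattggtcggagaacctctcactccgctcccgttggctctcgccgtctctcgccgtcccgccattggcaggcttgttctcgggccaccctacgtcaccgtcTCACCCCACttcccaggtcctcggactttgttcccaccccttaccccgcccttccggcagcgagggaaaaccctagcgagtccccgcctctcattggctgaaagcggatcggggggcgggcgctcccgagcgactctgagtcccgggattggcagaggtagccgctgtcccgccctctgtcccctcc
No match in the other 15 says only that these letters are not in their windows.

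The gene that rose against vehicle was Ebp, a sterol isomerase, with 131, 157 and 189.7 CPM in semaglutide mice, against 101, 123 and 142 CPM in vehicle mice (log2 fold change 0.36 ± 0.11, adjusted p = 0.0379). In the other mice 11 of the enzymes rose at 16 weeks and 6 at 24 weeks, where 6.44% and 10.8% of all genes rose. Of 12 LXR target and sterol export genes 5 were higher and 2 lower in semaglutide mice than in chow reversal mice. Abcg8 forms with Abcg5 the pump that moves cholesterol into bile. Abcg8 had 281, 325 and 410.05 CPM in semaglutide mice, against 143, 211 and 294 CPM in vehicle mice (log2 fold change 0.58 ± 0.18, adjusted p = 0.0411), and chow reversal mice 70.6, 92.5 and 109 CPM (log2 fold change 1.82 ± 0.20, adjusted p = 1.07e-10 for semaglutide over chow reversal). Abcg5 had 228, 269 and 334 CPM in semaglutide mice, against 125, 199 and 255 CPM in vehicle mice (log2 fold change 0.46 ± 0.17, adjusted p = 0.0936). Scarb1, which takes up cholesterol from high-density lipoprotein, had 192, 255 and 279 CPM in semaglutide mice, against 165, 184 and 267 CPM in vehicle mice (log2 fold change 0.34 ± 0.11, adjusted p = 0.0454), and Soat2, which esterifies cholesterol, had 40.6, 53 and 62.4 CPM in semaglutide mice, against 36.3, 39.97 and 53.8 CPM in vehicle mice (log2 fold change 0.33 ± 0.11, adjusted p = 0.0481). Each of these calls against vehicle was lost with some library left out, for Ebp in 10 fits, up to 0.115 without semaglutide replicate 5, Abcg8 in 9 fits, up to 0.113 without semaglutide replicate 2, Scarb1 in 12 fits, up to 0.119 without semaglutide replicate 2 and Soat2 in 11 fits, up to 0.102 without vehicle replicate 7, and all 4 also missed the threshold under library totals alone (adjusted p 0.0887 to 0.19).

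**Figure D4:**
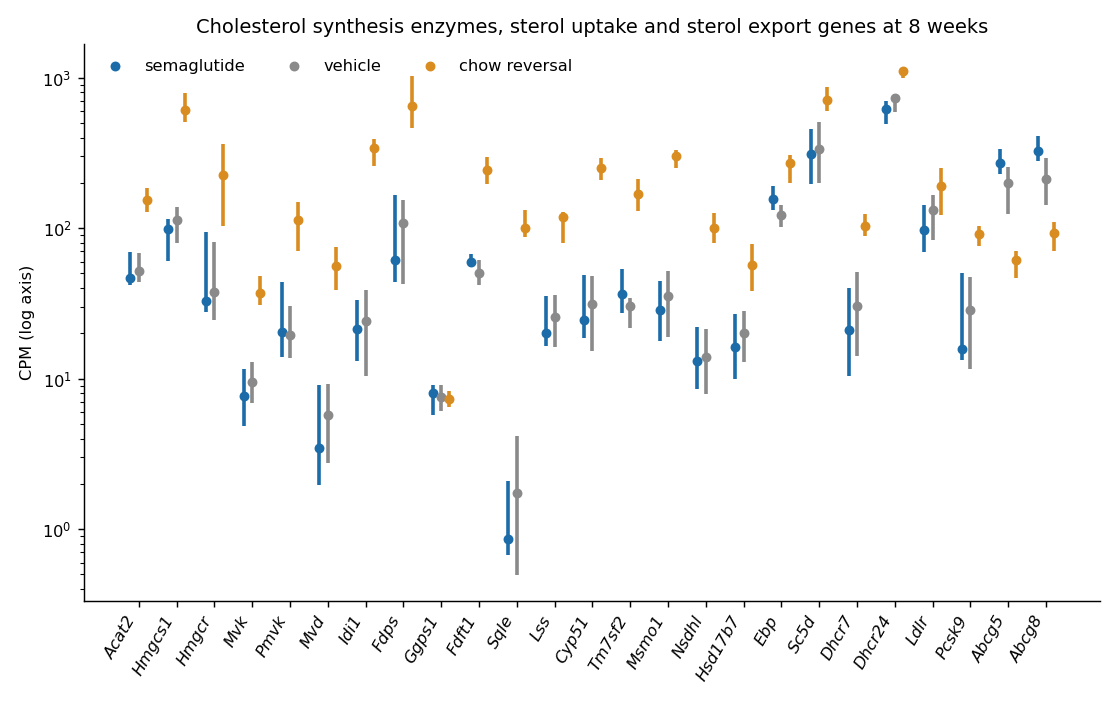
Median CPM, with a line from the lowest to the highest mouse, for 25 sterol genes at 8 weeks in semaglutide, vehicle and chow reversal mice, on a log axis. Semaglutide and vehicle mice overlap for Sqle, Idi1 and Hmgcs1, chow reversal mice are higher than semaglutide mice for 20 of 21 enzymes, and Abcg8 is at a median of 325 CPM in semaglutide mice, 211 CPM in vehicle mice and 92.5 CPM in chow reversal mice.

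Most of what changed at 8 weeks was also changed later. The groups of 16 and 24 weeks share no mice with those of 8 weeks, and in them 960 genes rose (6.44%) and 864 fell (5.8%) at 16 weeks, and 1604 rose (10.8%) and 2021 fell (13.6%) at 24 weeks. Of the 334 genes higher at 8 weeks 168 were higher at 16 weeks (50.3% of the 8-week list and 17.5% of the 16-week list) and 283 at 24 weeks (84.7% and 17.6%). Of the 523 genes lower at 8 weeks 279 were lower at 16 weeks (53.3% and 32.3%) and 439 at 24 weeks (83.9% and 21.7%), and 0 genes passed in the opposite direction at either time. The 16-week list depends on the fit, with 330 rises under the block on library numbers, 371 without the 3 libraries of a second number series and 185 with both 16-week groups fitted alone. At 8 weeks only, 40 of the rises and 74 of the falls passed, which is no test of a difference between times. At 24 weeks 331 of the 334 rises and 518 of the 523 falls had the same sign. Among the rises the median of the log2 values was 0.60 at 24 weeks, beside 0.51 at 8 weeks, and the falls -1.001 beside -0.973, and since the 8-week values were selected for passing, these medians are a description.

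**Figure D5:**
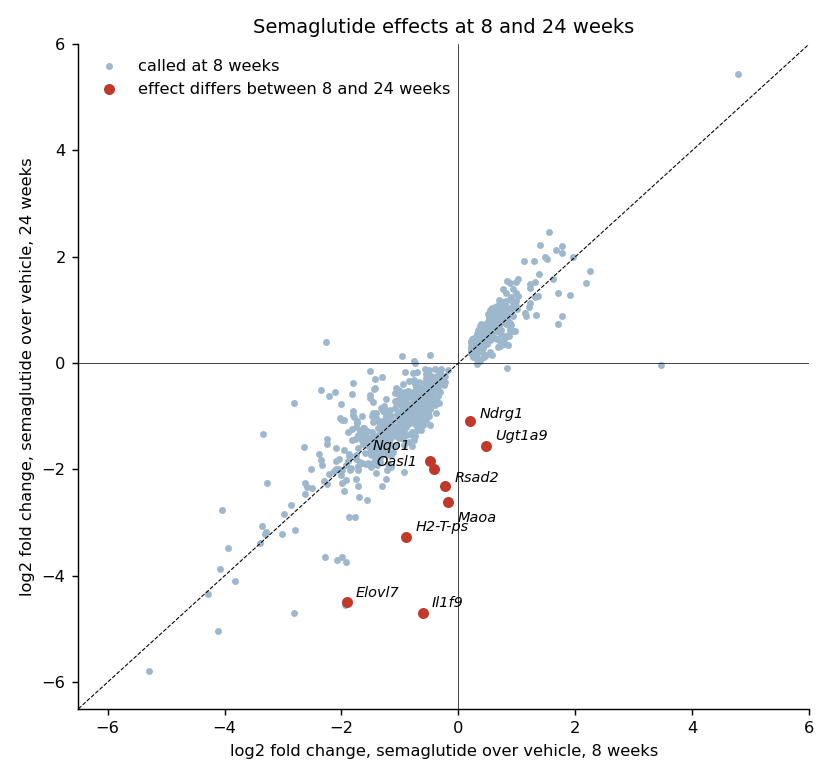
Log2 fold change of semaglutide over vehicle at 8 weeks (x axis) and at 24 weeks (y axis) for the genes that passed at 8 weeks and those whose effect differed, with the 9 genes whose effects differed in red and a dashed line of equality. The genes in red lie below the line, with differences of 1.30 to 4.09 between the times.

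The difference between the effects at 8 and 24 weeks was tested directly and passed for 9 genes (0.0604%), while 681 had an unadjusted p under 0.05. In all 9 the effect was more negative at 24 weeks. Maoa, which breaks down monoamines, had 6.75, 8.69 and 9.75 CPM in semaglutide mice, against 8.15, 9.57 and 11.3 CPM in vehicle mice at 8 weeks (log2 fold change -0.17 ± 0.23, adjusted p = 0.748) and a log2 fold change of -2.61 at 24 weeks, a difference of 2.44. Rsad2 and Oasl1, both interferon-induced, had log2 fold changes of -0.23 and -0.41 at 8 weeks and -2.31 and -1.999 at 24 weeks. Il1f9, a cytokine of the interleukin-1 family, had -0.61 and -4.70, and Ugt1a9, a glucuronidation enzyme that shares exons with its neighbours, had 0.48 and -1.56. The elongase Elovl7 was the 1 of the 9 that already fell at 8 weeks, by 1.91 on the log2 scale, and it was at -4.49 at 24 weeks. The other 3 were Ndrg1 (0.20 and -1.10), the NRF2 target Nqo1 (-0.49 and -1.83) and the pseudogene H2-T-ps (-0.89 and -3.27). Between 8 and 16 weeks 0 genes passed in edgeR, with 653 at an unadjusted p under 0.05 and 2 in DESeq2.

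Some 8-week effects had smaller fold changes later, although the difference between the times did not pass for them, and the examples were chosen after their values were seen. Cidea was at -3.35, -1.83 and -1.33 at 8, 16 and 24 weeks, Mogat1 at -1.82, -0.95 and -0.58, Lepr at 1.78, 1.48 and 0.88, and Igfbp3 at -0.91, -0.54 and -0.17. At 24 weeks the adjusted p was 0.0203 for Cidea, 0.0877 for Mogat1, 0.0535 for Lepr and 0.514 for Igfbp3. Anxa2 (-2.001, -1.78 and -2.11) and Slc10a1 (1.01, 1.08 and 1.26) had values close to those of the first time point.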

How the data were processed

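RNA was sequenced from livers of 77 male mice in 10 groups with the NEBNext Ultra II Directional kit on an Illumina NextSeq instrument. Per the labels, the authors' notes name FastQC 0.11.9, STAR 2.7.3a, Salmon 1.2.0, Picard and the GRCm38 genome. The table they deposited holds estimated counts per gene, of which 7.55% are not whole numbers, and these were rounded here. It lists 55487 genes, of which 260 rows, with 0.0155% of the counts, have no gene name. These rows stayed in the table that was filtered and fitted, and were treated as predicted genes when genes were picked for naming. All 77 columns matched a sample, and the groups are those of the labels.

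The main test was edgeR 4.0.16's quasi-likelihood F test in R 4.3.3 (limma 3.58.1), with TMM scaling, edgeR's default filter on low counts (14904 genes kept), 1 model of the 10 groups over all 77 libraries, so that they share an estimate of the spread, and Benjamini-Hochberg adjustment over all genes tested at a threshold of 0.05. Every adjusted p in the text comes from this fit unless another tool is named. Standard errors were derived from the fold change and its F statistic. CPM used the TMM-scaled library sizes, and log2 values used for averages and scores a prior count of 2. The total counts of 8883150 to 37631072 per library set the precision of the levels, low ones above all. Replicates are separate mice, and no pair within a group agreed within sampling noise (chi-square per gene of 11.5 or more). The fit was also run on counts simulated from its own means and spread with known fold changes. That run checks the code and cannot show how well the model suits these mice.

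The text names the 12 largest rises and falls among genes that passed with an average log2 CPM over 1 (predicted genes left out), up to 4 members of smallest p in each of 42 pathway lists, up to 5 genes of smallest p for each test of a difference, Glp1r, and members that complete a count of 5 or fewer. Genes named beyond this rule were chosen after their values were seen. Of 1242 list memberships 1239 were matched to the table. The part studied, the lists and the tests were chosen with earlier results of these data known. Alternatives were DESeq2 1.42.0, RLE size factors, library totals alone, no filter, only the compared groups, a block on sets of 10 neighbouring library numbers, leaving out 3 libraries of a second number series (none at 8 weeks), and leaving out each 8-week library in turn. Promoter windows are those of RefSeq for GRCm38.p6. A result of 1 named gene is not reported here.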

Additional observations from a re-analysis of the deposited data

Results flagged for a closer look

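In each 8-week group of each named gene reported here, the highest and the lowest mouse were compared with the rest: a mouse was singled out when its gap to the next was a larger share of the group's range than Dixon's 95% critical value for 7 or 9 mice allows. This held for 21 of 414 groups, and chance singles out about 1 in 20. Semaglutide replicate 3 had 5 of them, semaglutide replicate 5 had 4, semaglutide replicate 7 had 1, vehicle replicates 3, 6 and 9 had 3 each, and vehicle replicate 4 had 2.

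Semaglutide replicate 3 was the highest of its group for Pkm (80 CPM), Cd63 (59.5 CPM) and Igfbp2 (812 CPM) and the lowest for mt-Cytb (5379 CPM) and Aldh1b1 (52.4 CPM). The same mouse had the most RNA of lipid-associated macrophages and monocytes in its group. Semaglutide replicate 5 was the lowest for Cd36 (95 CPM), Pparg (7.87 CPM) and Il1f9 (0.061 CPM) and the highest for Klf15 (275 CPM), and semaglutide replicate 7 was the 1 semaglutide mouse with any count of Tekt5 (0.0557 CPM).

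Among vehicle mice, replicate 3 stood out for Scarb1 (267 CPM), Pigr (1454 CPM) and Gstm3 (194 CPM), the first pair high and Gstm3 low. Vehicle replicate 4 was high for Cyp39a1 (23.1 CPM) and Mcm2 (14.6 CPM). Vehicle replicate 6 was high for Mmp7 (15.3 CPM) and low for Aldh1b1 (76.3 CPM) and Hlf (26.4 CPM), and vehicle replicate 9 was low for Lpin3 (4.43 CPM), Apobec1 (13.7 CPM) and Smpd3 (10.1 CPM).

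The effect of semaglutide at 8 weeks differed from that at 24 weeks, by edgeR's test of the difference itself, for 9 genes, and each difference is given as 8 minus 24 weeks on the log2 scale. Il1f9 had the largest, 4.09, followed by Elovl7 at 2.58, Maoa at 2.44, H2-T-ps at 2.38, Rsad2 at 2.08 and Ugt1a9 at 2.03. Oasl1 was at 1.59, Nqo1 at 1.35 and Ndrg1 at 1.30.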

How the results depend on the processing

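The 857 calls at 8 weeks numbered 558 with no filter, 2115 when both 8-week groups were fitted alone, and 527 to 1115 with 1 library left out, the fewest without semaglutide replicate 2 (547 without vehicle replicate 7). Other settings gave 739 to 1208. At 16 weeks the 1824 calls became 713 with the block on library-number sets, 533 with only the compared groups and 742 without the second-series libraries. The 9 genes that differed between 8 and 24 weeks became 16 in DESeq2, 3 with the block and 4 with only the compared groups, and the 0 that differed between 8 and 16 weeks became 2 in DESeq2 and 4 with no filter. The 918 genes that differed from chow reversal became 1527 under library totals alone, 603 with no filter and 2999 with only the compared groups. The cause of these shifts was not tested. Of the 133 named genes called at 8 weeks 0 turned direction under the 23 settings and 76 passed in every one that tested them. The other 57 missed the threshold somewhere, 38 with no filter, 5 with RLE factors and 0 in DESeq2. Library totals alone ended 22 calls, those of Abcg8, Acsl1, Agt, Apof, Cyp2d22, Cyp2e1, Cyp39a1, Dgat2, Ebp, Fbp1, Fgfr4, Gpld1, Gstt3, Il6ra, Mlxipl, Nr5a2, Retsat, Rxra, Scarb1, Slc27a5, Smoc1 and Soat2. The block on library-number sets ended 17, those of Abcg8, Agt, Apom, Cd36, Cd63, Cdh1, Cfd, Cftr, Cyp4a12b, Fbp1, Gstt3, Lipa, Mmp7, Pparg, Slc27a5, Soat2 and Spp1, and left 7 falls of injured-hepatocyte genes in place of 11, 3 of ductular genes in place of 5 and 0 rises of LXR targets in place of 2. No paired analysis was possible because the labels carry no replicate numbers and each mouse was sampled for RNA once, and the block on library-number sets (739 calls at 8 weeks) pairs no mice. Genes under a few CPM are limited by depth.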
